A study of Mus musculus with 16 samples.

Results

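Matrix metalloproteinases (MMPs), ADAMTS proteases with their ADAMTS-like relatives, and tissue inhibitors of metalloproteinases (TIMPs) were examined in mouse heart muscle cells. Members were taken by name alone: every gene symbol that begins with Mmp and a digit, with Adamts, or with Timp and a digit, pseudogenes left out. The rule gave 51 of the 57010 gene models, namely 23 Mmp, 19 Adamts, 5 Adamtsl and 4 Timp genes. RNA was sequenced from cardiomyocytes of C57BL/6 mice that were given an adeno-associated virus (AAV9), used to deliver genes, and were later operated on at the aorta. AAV9-PRODH carried proline dehydrogenase, the mitochondrial enzyme that begins proline breakdown, and AAV9-Vector was its control. Transverse aortic constriction (TAC) constricts the aortic arch so that the left ventricle pumps against a higher pressure, and the control operation was a sham. The virus was given 3 weeks before the operation, and cells were taken 4 weeks after it.

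The 4 groups of 4 libraries are PRODH TAC (AAV9-PRODH and TAC), vector TAC (AAV9-Vector and TAC), PRODH sham (AAV9-PRODH and sham) and vector sham (AAV9-Vector and sham). All animals therefore carried an AAV9 virus. The labels call the genotype PRODH overexpression in the PRODH groups and wild type in the vector groups. The design text calls the overexpression specific to the heart, but the sources used here do not give the promoter, the age of the mice or any pooling of animals. It is not stated whether the 4 libraries of a group are from different mice, and the p-values therefore reflect only the spread among these libraries, which may be technical.

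MMPs are zinc enzymes, made as inactive precursors, that cut collagens, gelatin, elastin and other matrix proteins, and TIMPs bind their active site and block them. ADAMTS proteases cut proteoglycans such as versican, trim procollagens or act on microfibrils, while ADAMTS-like proteins lack the protease domain and several of them bind fibrillin. In the heart these genes are known for the turnover of matrix during remodelling under load, and fibroblasts are a main source of many of them.

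Each library held between 15987580 and 22680212 counts in all, and genes of the mitochondrial genome took 34.5% to 36.6% of counts in the TAC libraries and 37.9% to 40.9% in the sham libraries. Prodh, the gene the virus was meant to raise, averaged 13.6 ± 1.05 CPM (a gene's count scaled to a common library size, with TMM factors) in PRODH TAC and 7.28 ± 1.18 in vector TAC (SD, n = 4), a log2 difference of 0.90 ± 0.10 (SE, edgeR adjusted p = 2.19e-08). The virus transcript is counted only as far as it matches the mouse gene model. After sham Prodh averaged 13.8 ± 0.955 CPM under PRODH and 11.0 ± 0.454 under the vector, a log2 difference of 0.33 ± 0.10 (edgeR adjusted p = 0.0517). TAC lowered Prodh under the vector (-0.58 ± 0.11, log2 ± SE, edgeR adjusted p = 2.58e-05) but not under PRODH (-0.02 ± 0.10, adjusted p = 0.904). The difference after TAC therefore includes that fall. The 12 cardiomyocyte markers summed to 29276 to 32800 CPM in PRODH TAC and 28749 to 30689 in vector TAC, against 36564 to 42607 in PRODH sham and 37861 to 42204 in vector sham. Markers of other cells were present too. The 12 fibroblast markers summed to 401 to 507 CPM in PRODH TAC, 892 to 1028 in vector TAC, against 361 to 407 in PRODH sham and 238 to 372 in vector sham, with none at 0. Endothelial markers (12) summed to 807 to 926 CPM in PRODH TAC, 1098 to 1247 in vector TAC, against 637 to 685 in PRODH sham and 582 to 708 in vector sham. Macrophage markers (11) summed to 209 to 261 CPM in PRODH TAC and 371 to 401 in vector TAC, against 196 to 238 in PRODH sham and 126 to 202 in vector sham. None of these was at 0. Mural markers (10) summed to 517 to 590 CPM in PRODH TAC and 561 to 619 in vector TAC. Their sums in sham were 429 to 462 CPM under PRODH and 444 to 465 under the vector. The 6 mesothelial and 8 lymphoid markers summed to at most 16.4 and 3.58 CPM. The 7 neutrophil markers, of which 3 passed the filter, summed to 1.01 to 1.34 CPM in PRODH TAC and 3.70 to 4.28 in vector TAC, against 0.498 to 1.20 in PRODH sham and 3.12 to 4.95 in vector sham. In such bulk samples fewer cells of a type and less RNA per cell cannot be told apart. Scaling by library size alone in place of TMM factors moved the median log2 fold change of all genes from 0.02 to 0.37 for TAC under the vector and from 0.02 to 0.40 under PRODH. With it 86.2% of the genes called after TAC were higher under the vector, against 53.6% with TMM, and 96.2% against 49.2% under PRODH. The directions given here are relative to that median.

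Of the 51 members 32 passed the filter on low counts and were tested: 11 of 23 Mmp, 12 of 19 Adamts, all 5 Adamtsl and all 4 Timp genes. The filter can keep a gene through the group where it is high, so the 32 are not all members. Of these 32, 22 passed the cutoff in each of the 16 libraries, and 10 did not: Mmp3, Mmp12, Mmp13, Mmp17, Mmp19, Mmp28, Adamts4, Adamts8, Adamts12 and Adamtsl1. Adamts4 passed in all 4 libraries of vector TAC alone and Mmp13 in those of PRODH TAC alone, while Mmp12 passed in a full group nowhere. Mmp17, Mmp19, Adamts12 and Adamtsl1 passed in all 4 libraries of both TAC groups and in all 4 of neither sham group. The filter therefore favours a rise with TAC for them. The 5 genes Mmp1a, Mmp1b, Mmp20, Mmp21 and Adamts18 had no count in any library. The other 14 untested members had at most 20 counts in a library. They were the neutrophil collagenase Mmp8, gelatinase B (Mmp9), matrilysin (Mmp7), Mmp10, Mmp16, Mmp24, Mmp25, Mmp27, the von Willebrand factor protease Adamts13, Adamts14, Adamts16, Adamts17, Adamts19 and Adamts20. These 19 genes were not tested. In a fit with no filter on low counts, 2 of the 14 with counts were called, Adamts16 and Adamts19, both higher in TAC than in sham under the vector (edgeR adjusted p = 0.0156 and 0.0266). They rest on few counts. Adamts16 had 8, 0, 2 and 1 counts in vector TAC and none in vector sham, and Adamts19 had 5, 12, 12 and 4 in vector TAC, against 0, 6, 3 and 0 in vector sham, so that both overlapped.

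Per kilobase of the deposited gene length, Timp3 had the highest level of the 32 over all 16 libraries, at 22.5 CPM per kilobase. Adamtsl5 followed at 16.1, Timp2 at 11.5, Mmp2 at 11.0, Mmp15 at 7.77 and Adamts1 at 5.55 CPM per kilobase. The lowest were Adamtsl1 at 0.102, Mmp12 at 0.115 and Adamts4 at 0.116 CPM per kilobase. The 4 Timp genes summed to 33.7 ± 1.76 CPM per kilobase in PRODH TAC, 73.3 ± 8.39 in vector TAC, against 32.97 ± 0.524 in PRODH sham and 24.96 ± 3.30 in vector sham (SD, n = 4). The Mmp genes summed to 23.5 ± 1.04 CPM per kilobase in PRODH TAC, 54.8 ± 4.28 in vector TAC, against 14.97 ± 0.311 in PRODH sham and 15.4 ± 1.76 in vector sham. The Timp and Mmp sums of vector TAC stood well clear of the other groups. Adamts genes came to 15.1 ± 1.12 CPM per kilobase in PRODH TAC, 24.97 ± 1.26 in vector TAC, against 9.75 ± 0.539 in PRODH sham and 10.4 ± 0.652 in vector sham. Adamtsl genes came to 23.6 ± 1.23 CPM per kilobase in PRODH TAC, 32.7 ± 2.29 in vector TAC, against 19.5 ± 1.18 in PRODH sham and 19.1 ± 2.47 in vector sham. Vector TAC was the highest group in each class. PRODH TAC was above both sham groups for the 3 classes other than Timp, whose PRODH TAC libraries (31.9 to 35.8) overlapped those of PRODH sham (32.3 to 33.6).

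**Figure D1:**
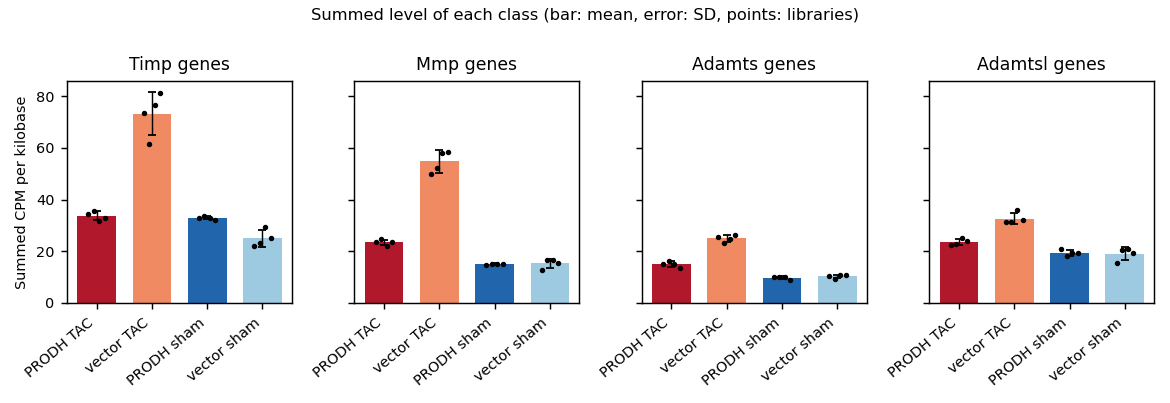
Summed level of the Timp, Mmp, Adamts and Adamtsl genes in CPM per kilobase by group, with bars for the mean of 4 libraries, error bars for the SD and a point for each library. Vector TAC is highest in each class, and the Timp bar of PRODH TAC (33.7) stands level with that of PRODH sham (33.0).

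The first comparison the study names sets TAC against sham under the control vector. Most tested members were higher after TAC, led by the gelatinase gene Mmp2 (3.59 ± 0.12, log2 fold change ± SE), the ADAMTS-like gene Adamtsl2 (3.47 ± 0.13), the procollagen peptidase gene Adamts2 (2.97 ± 0.11) and Mmp23 (2.84 ± 0.17). All 4 Timp genes and all 5 Adamtsl genes rose, with 7 of 11 Mmp and 8 of 12 Adamts genes. Adamts7, a protease of cartilage oligomeric matrix protein, and the membrane type MMP gene Mmp15 fell. A gene is called here when its edgeR Benjamini-Hochberg adjusted p is under 0.05 over all 14066 genes tested. In these terms 24 of 32 members rose, 2 fell and 6 were not called, against 56.5% of all genes called, 30.3% higher and 26.2% lower. The median log2 fold change was 1.42 for the 32 members and 0.02 for all genes tested. Among the 22 members past the cutoff in every library 16 rose and 2 fell, with a median of 1.37. TAC and sham libraries did not overlap for 23 members with TAC higher and for 1 with TAC lower (26.1% and 21.1% of all genes). In the same comparison all 12 fibroblast markers (median 1.74), all 12 endothelial markers (1.02) and all 11 macrophage markers (1.39) rose. So did 7 of 10 mural markers (2 fell), 4 of 6 mesothelial, 1 of 3 tested neutrophil and the 1 tested lymphoid marker. Of the 12 cardiomyocyte markers 9 fell and 0 rose (median -0.36). The part of these cells in the result was not tested.

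The second comparison the study names sets PRODH against the vector after TAC, and it shares the vector TAC libraries with the first. Most members were lower under PRODH, led by Adamtsl2 (-2.39 ± 0.12, log2 fold change ± SE), Timp1 (-2.34 ± 0.18), Mmp2 (-1.93 ± 0.10), Mmp14 (-1.71 ± 0.11) and Adamts2 (-1.68 ± 0.10). Higher under PRODH were 4 members: Adamts7 (0.81 ± 0.12), Mmp15 (0.39 ± 0.09), Adamts15 (0.46 ± 0.13) and the collagenase gene Mmp13 (0.95 ± 0.30). Of these, Mmp13 was kept by the filter through PRODH TAC alone, the group where it is high. In all, 20 of 32 members were lower, 4 higher and 8 not called, against 43.1% of all genes called, 24.6% lower and 18.5% higher. Members had a median of -0.90 and all genes one of -0.04. The 22 members past the cutoff in every library gave 15 lower and 3 higher, with a median of -0.92. Libraries of the 2 groups did not overlap for 20 members lower and 3 higher under PRODH (22.6% and 16.7% of all genes). Of the 12 fibroblast markers 11 were lower and 1 higher (median -1.06), all 12 endothelial markers were lower (-0.45) and 10 of 11 macrophage markers were lower (-0.71). Lower too were 6 of 10 mural markers (2 were higher), 5 of 6 mesothelial, all 3 tested neutrophil and the 1 tested lymphoid marker. Of the 12 cardiomyocyte markers 5 were higher and 2 lower (median -0.06). The part of these cells in the result was not tested.

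TAC against sham under PRODH raised 17 of 32 members and lowered none, against 35.0% of all genes called, 17.2% higher and 17.8% lower. Mmp2 (1.43 ± 0.12, log2 fold change ± SE), Adamtsl2 (1.60 ± 0.16), Mmp14 (1.29 ± 0.14), Adamts2 (1.25 ± 0.12) and the 6 tested Adamts proteoglycanase genes were among those that rose, but the call of Adamts4 among these (adjusted p = 0.0390) was lost with no filter (0.0950) and with DESeq2 (0.0792, range over the alternatives 0.00415 to 0.111). No Timp gene was called with TMM factors. The median was 0.55 for members and 0.02 for all genes, and 11 of the 22 members past the cutoff in every library rose (median 0.40). Scaled by library size alone, 27 of the 32 rose, and so did 7875 of all 14066 genes tested. The groups did not overlap for 17 members with TAC higher and for 0 with TAC lower (17.3% and 17.4% of all genes). Fibroblast markers rose in 7 of 12 cases (median 0.54), endothelial markers in 9 of 12 (0.44) and macrophage markers in 2 of 11 (0.24). Mural markers rose in 8 of 10 cases and fell in none (0.75). None of the 6 mesothelial, 3 tested neutrophil and 1 tested lymphoid markers was called. Of the 12 cardiomyocyte markers 7 fell and 1 rose (-0.31). Their part was not tested.

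PRODH against the vector after sham gave 3 called members, against 5.00% of all genes, 2.81% higher and 2.20% lower. Timp3 was higher under PRODH, and Adamts9 and Adamts1 were lower. The members' median was 0.05 and that of all genes 0.01. Libraries did not overlap for 2 members higher and 2 lower under PRODH (5.25% and 5.17% of all genes). Here 2 of 12 fibroblast markers (median 0.26) and 4 of 11 macrophage markers (0.35) were higher under PRODH. Lower were 2 of 3 tested neutrophil and 2 of 10 mural markers, with 1 of 12 endothelial markers higher and 1 lower. None of the 12 cardiomyocyte markers was called. The part of these cells was not tested.

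**Figure D2:**
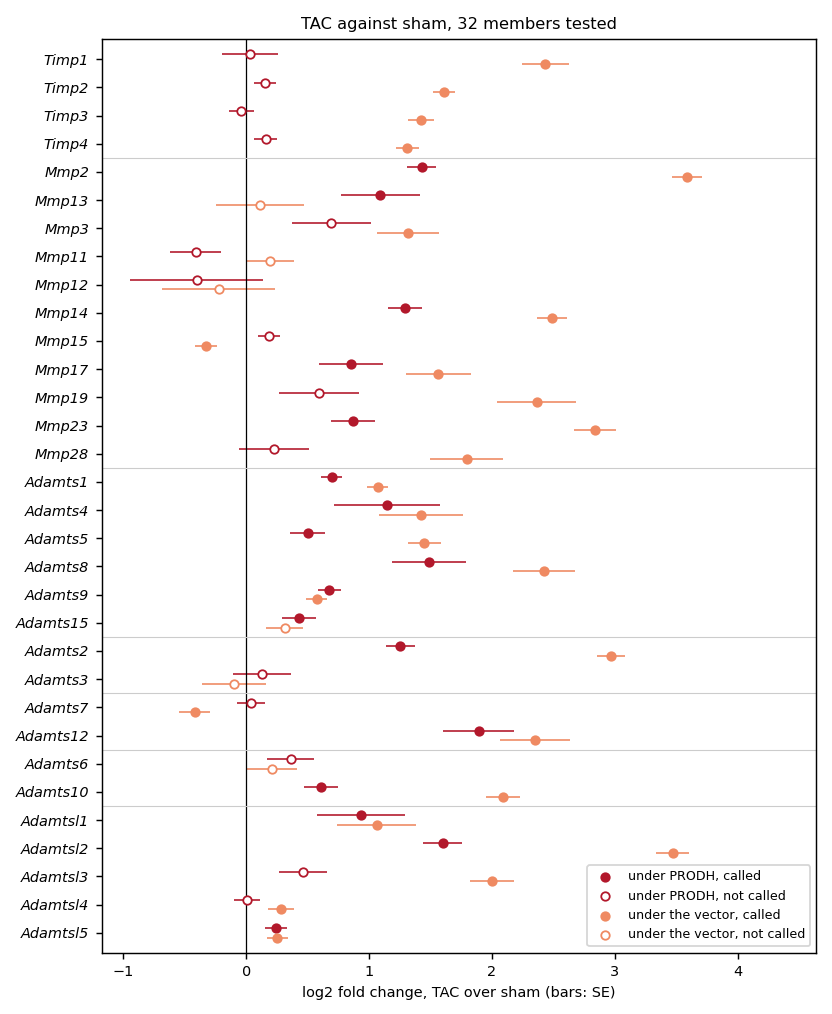
Log2 fold change of TAC over sham (x axis) for each of the 32 tested members, in PRODH libraries (dark red) and vector libraries (orange), with bars for the SE and filled points for members called. In the Timp rows at the top the PRODH points lie near 0 (-0.04 to 0.16) and the vector points between 1.31 and 2.43.

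Whether the effect of TAC differed between the viruses was tested as an interaction, in which a negative value means a smaller or more negative effect under PRODH. It called 17 of 32 members, 15 lower and 2 higher, against 26.8% of all genes called, 15.8% lower and 10.9% higher. All 4 Timp genes were among the 15, as were Mmp2 (-2.16 ± 0.17, log2 ± SE), Adamtsl2 (-1.87 ± 0.23), Mmp23 (-1.97 ± 0.26), Adamts2 (-1.71 ± 0.17), Adamts10 (-1.49 ± 0.20) and Mmp14 (-1.19 ± 0.19). Higher were Mmp15 (0.51 ± 0.13) and Adamts7 (0.46 ± 0.17). Of the 12 fibroblast markers 11 gave a lower value as well (median -1.24), as did 10 of the 11 macrophage markers (-1.12). Of the 12 endothelial markers 8 gave a lower and 1 a higher value (-0.52). Of the 10 mural markers 2 gave a lower and 3 a higher value, and of the 6 mesothelial 2 gave a lower one. Of the 12 cardiomyocyte markers 1 gave a lower and 5 a higher value. The part of these cells was not tested.

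**Figure D3:**
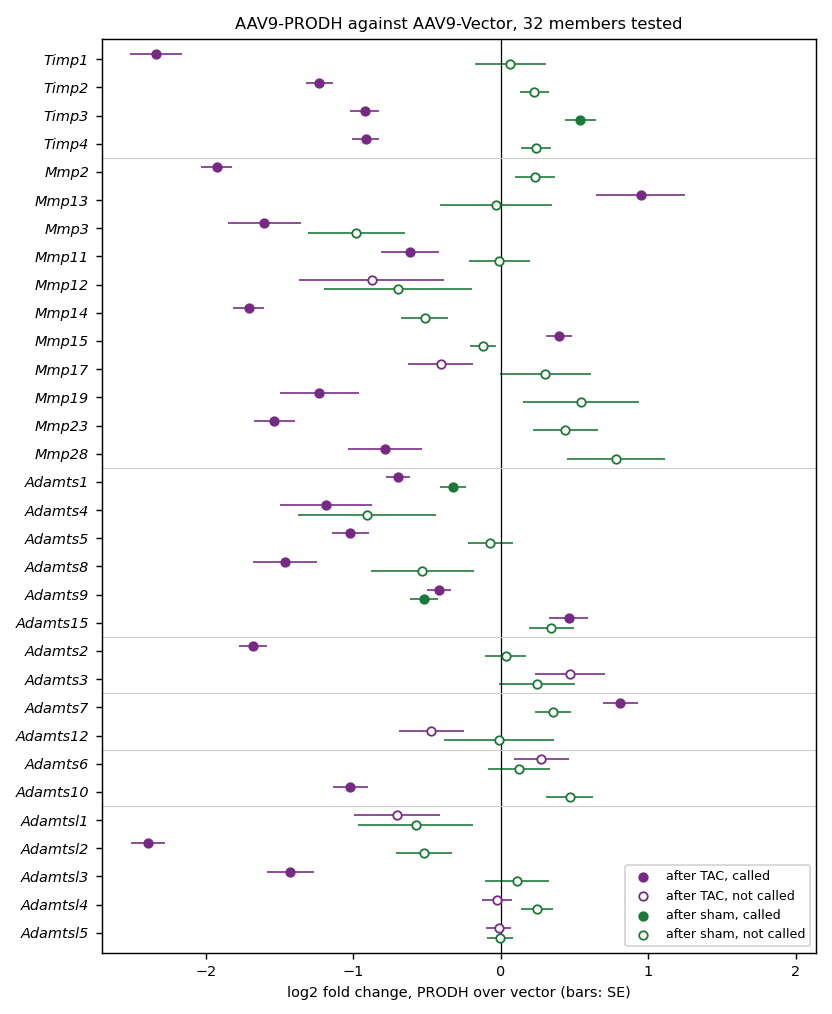
Log2 fold change of PRODH over vector (x axis) for each of the 32 tested members, after TAC (purple) and after sham (green), with bars for the SE and filled points for members called. After TAC 20 members lie to the left of 0 and are called, while Adamts7, Mmp15, Adamts15 and Mmp13 are called to the right, and after sham 3 members are called.

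The TIMP genes, which encode the inhibitors, were high in vector TAC. With TMM factors their PRODH TAC libraries overlapped those of PRODH sham. Timp1, the inducible inhibitor, stood at 1.25, 1.40, 1.58 and 1.18 CPM in PRODH TAC, against 6.64, 6.91, 5.71 and 8.29 in vector TAC. Sham values of Timp1 were 1.28, 1.56, 0.974 and 1.51 CPM under PRODH and 0.925, 1.62, 1.63 and 0.846 under the vector. All 4 vector TAC libraries lay above the other 12, which overlapped one another. TAC raised Timp1 by 2.43 ± 0.19 under the vector (log2 ± SE, adjusted p = 5.22e-12), and its value under PRODH was 0.03 ± 0.23 (adjusted p = 0.934).

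Timp2, which blocks MMPs and also forms the complex with MMP14 that activates the MMP2 precursor, stood at 35.8, 36.9, 30.3 and 33.5 CPM in PRODH TAC, against 74.3, 69.3, 87.5 and 89.4 in vector TAC. Sham libraries held 30.4, 29.3, 28.6 and 34.5 CPM of Timp2 under PRODH and 23.2, 25.7, 30.8 and 25.1 under the vector. Again the vector TAC libraries lay above the other 12. The TAC effect on Timp2 was 0.15 ± 0.09 under PRODH and 1.61 ± 0.09 under the vector, a difference of -1.46 ± 0.13 (log2 ± SE, adjusted p = 1.25e-09).

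Timp3, the inhibitor that stays bound to the matrix and also blocks ADAMTS proteases, stood at 93.9, 96.0, 88.7 and 88.3 CPM in PRODH TAC, against 186, 134, 184 and 192 in vector TAC. It stood at 95.0, 97.6, 99.7 and 84.9 CPM in PRODH sham and 60.1, 54.2, 76.2 and 69.2 in vector sham. Vector TAC was highest and vector sham lowest, and both PRODH groups lay between them. Timp3 was the one member called higher under PRODH after sham (0.54 ± 0.10, adjusted p = 0.00131), while after TAC it was lower (-0.92 ± 0.10, adjusted p = 6.64e-08).

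Timp4, known for its high level in the heart, stood at 19.6, 21.1, 16.7 and 19.6 CPM in PRODH TAC, against 34.8, 35.0, 39.8 and 36.0 in vector TAC. The sham values of Timp4 were 17.7, 17.2, 16.5 and 17.6 CPM in PRODH and 11.2, 14.8, 17.2 and 15.1 in vector libraries. The vector TAC libraries lay above all others, and both PRODH groups overlapped. TAC under PRODH gave 0.16 ± 0.10 (adjusted p = 0.201).

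That no TIMP gene was called after TAC under PRODH depends on the scaling. By library size alone Timp2 (0.54, adjusted p = 1.30e-05) and Timp4 (0.54, adjusted p = 4.81e-05) were called higher, and so was Timp3, at 0.34 in place of -0.04 (adjusted p = 0.0110, range over the alternatives 0.0110 to 0.995). Over all alternatives the adjusted p ran from 1.30e-05 to 0.435 for Timp2 and from 4.81e-05 to 0.448 for Timp4. Exons of Timp3 share 1733 bases with Syn3 and those of Timp4 share 90 with Syn2, on the opposite strand in GENCODE M21. Timp3 had fractional counts in all 16 libraries. The sources used here do not say whether the counting used strand, and reads of such pairs cannot be told apart.

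**Figure D4:**
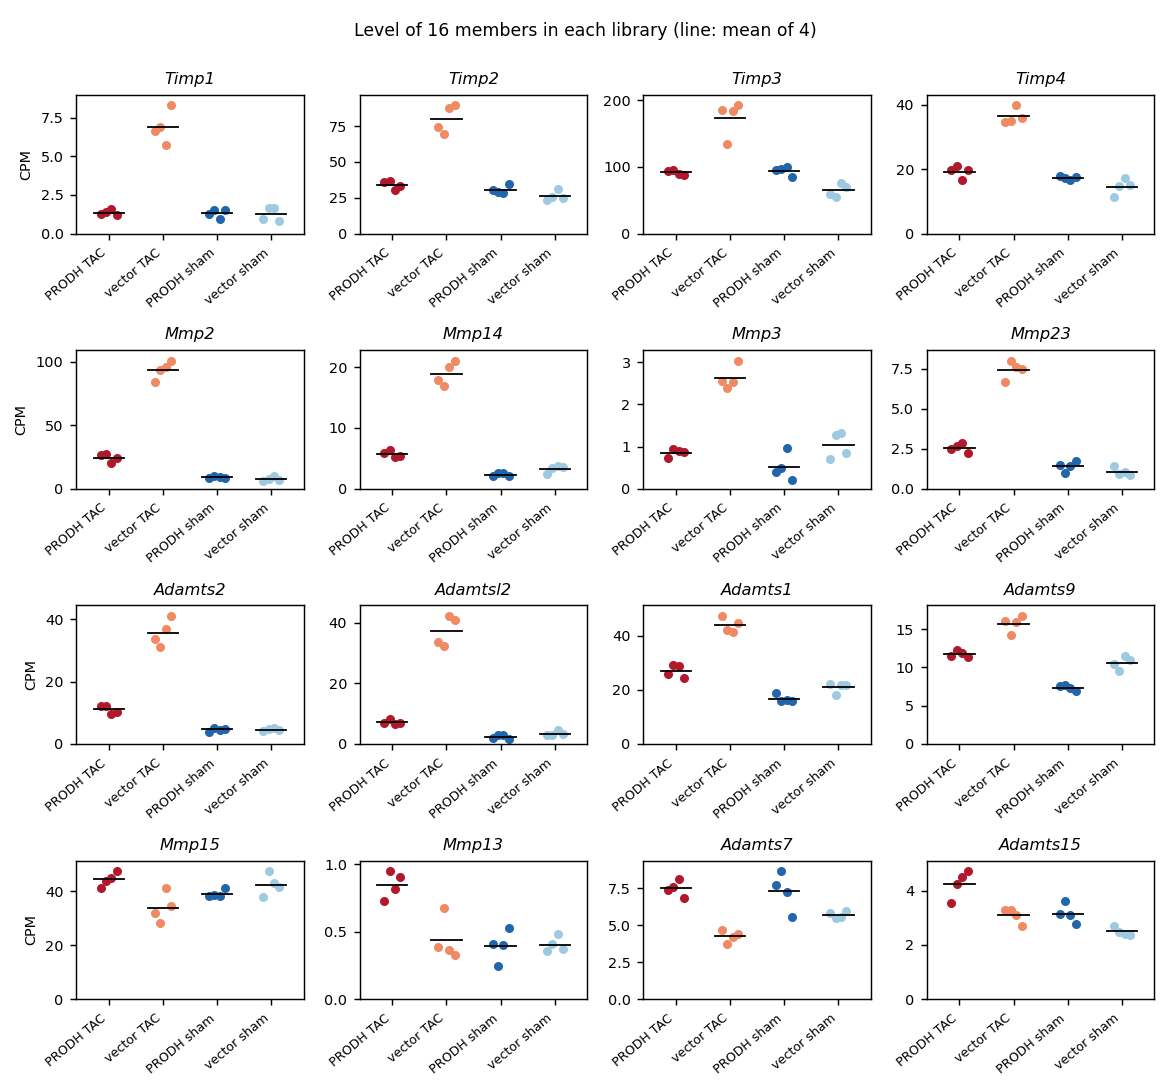
CPM of 16 members in each library (points) by group, with a line for the mean of 4 libraries and its own y axis from 0 for each gene. The first 3 rows show genes highest in vector TAC, while in the bottom row Mmp15, Mmp13, Adamts7 and Adamts15 have their highest mean in PRODH TAC.

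Among the proteases, the gelatinase A gene Mmp2 had the largest rise after TAC under the vector. MMP2 cuts denatured collagen and basement membrane. After TAC, Mmp2 stood at 26.5, 27.7, 20.3 and 23.97 CPM in PRODH libraries, against 84.5, 93.7, 96.2 and 101 in vector libraries. Sham values of Mmp2 were 8.87, 9.97, 9.40 and 8.34 CPM under PRODH and 5.91, 7.86, 10.4 and 6.82 under the vector. Vector TAC was highest in every library, PRODH TAC lay between it and the sham groups, and both sham groups overlapped. TAC raised Mmp2 by 1.43 ± 0.12 under PRODH (log2 ± SE, adjusted p = 1.32e-09) and by 3.59 ± 0.12 under the vector (adjusted p = 1.19e-18).

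Mmp14 encodes MT1-MMP, the membrane-anchored enzyme that activates the MMP2 precursor. It stood at 5.95, 6.44, 5.24 and 5.47 CPM in PRODH TAC, against 17.8, 16.8, 20.03 and 21.1 in vector TAC. In sham libraries Mmp14 stood at 2.10, 2.62, 2.58 and 2.10 CPM under PRODH and 2.49, 3.40, 3.80 and 3.65 under the vector. The order of the groups was that of Mmp2, with both sham groups overlapping. After TAC the difference between PRODH and vector was -1.71 ± 0.11 for Mmp14 (adjusted p = 6.05e-14) and -1.93 ± 0.10 for Mmp2 (adjusted p = 5.92e-14). After sham Mmp14 was at -0.52 ± 0.16 and missed the threshold (adjusted p = 0.0561). It passed without vector sham library 1 (0.0175) or vector TAC library 2 (0.0484), and the alternatives ran from 0.0175 to 0.155.

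Mmp15, which encodes MT2-MMP, another membrane-anchored enzyme, differed from Mmp14 in its direction between PRODH and vector after TAC. It stood at 41.3, 43.7, 45.0 and 47.5 CPM in PRODH TAC, against 31.7, 28.0, 41.3 and 34.4 in vector TAC. Its sham values were 38.2, 38.4, 38.2 and 41.2 CPM in PRODH and 37.7, 47.3, 43.1 and 41.5 in vector libraries. One vector TAC library, the third, reached the PRODH TAC libraries, so these groups overlapped. Mmp15 was higher under PRODH after TAC (0.39 ± 0.09, adjusted p = 0.000638). Mmp15 fell after TAC under the vector (-0.33 ± 0.09, adjusted p = 0.00247), but with library size alone as the scaling it was at 0.023 (adjusted p = 0.844, range over the alternatives 6.32e-05 to 0.844). Under PRODH its TAC value of 0.19 was not called (adjusted p = 0.102). It passed with library size alone (5.14e-06), with only the PRODH groups in the fit (0.0148), and without PRODH sham library 4 (0.0470), vector sham library 1 (0.0451) or vector sham library 2 (0.0432), in a range of 5.14e-06 to 0.186.

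Mmp17, the gene of the lipid-anchored MT4-MMP, was low. It had 1.37, 1.20, 1.06 and 1.02 CPM in PRODH TAC, against 1.57, 1.20, 1.78 and 1.63 in vector TAC, and these overlapped (adjusted p = 0.138). The sham libraries had 0.525, 0.685, 0.573 and 0.788 CPM of Mmp17 under PRODH and 0.498, 0.660, 0.423 and 0.476 under the vector. TAC raised it under both viruses (0.85 ± 0.26 under PRODH and 1.56 ± 0.26 under the vector, log2 ± SE). Mmp17 passed the filter through the TAC groups, where it is high.

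Collagenases open the triple helix of fibrillar collagen, and Mmp13, collagenase 3, was the one of 4 that passed the filter. It stood at 0.724, 0.950, 0.812 and 0.905 CPM in PRODH TAC, against 0.383, 0.676, 0.367 and 0.325 in vector TAC. Sham libraries had 0.409, 0.249, 0.401 and 0.525 CPM of Mmp13 under PRODH and 0.356, 0.406, 0.483 and 0.370 under the vector. The PRODH TAC libraries were the 4 highest of all 16, although none had more than 23 counts of Mmp13. TAC raised it under PRODH (1.09 ± 0.32, log2 ± SE, adjusted p = 0.00897), while under the vector it was at 0.11 ± 0.36 (adjusted p = 0.818). The difference between these effects was 0.98 ± 0.49 and was not called (adjusted p = 0.139). Mmp13 passed the filter through PRODH TAC alone, the group where it is high.

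Stromelysin 1 (Mmp3), which cuts many matrix proteins and activates other MMP precursors, was lower under PRODH than under the vector after TAC. Mmp3 had 0.724, 0.950, 0.894 and 0.866 CPM in PRODH TAC, against 2.55, 2.39, 2.52 and 3.04 in vector TAC. Its sham values were 0.409, 0.498, 0.974 and 0.197 CPM under PRODH and 0.712, 1.27, 1.33 and 0.846 under the vector. The vector TAC libraries lay above all others. The difference between PRODH and vector after TAC was -1.60 ± 0.25 (log2 ± SE, adjusted p = 5.08e-06). After sham it was -0.98 ± 0.33 and not called (adjusted p = 0.0840). Without PRODH sham library 3, the highest of its group, it passed at -1.49 (adjusted p = 0.00952, range over the alternatives 0.00952 to 0.220), and TAC under PRODH, not called at 0.69 ± 0.32 (adjusted p = 0.0944), then passed as well (1.23, adjusted p = 0.00781). It also passed by library size alone (1.06, adjusted p = 0.00636, range 0.00636 to 0.276).

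Stromelysin 3 (Mmp11) had 1.81, 1.24, 1.54 and 1.46 CPM in PRODH TAC, against 2.13, 1.82, 2.99 and 2.38 in vector TAC, next to each other without overlap. Sham values of Mmp11 were 2.33, 1.99, 2.01 and 1.71 CPM under PRODH and 1.35, 2.33, 2.05 and 2.27 under the vector, within the span of both TAC groups. The fall under PRODH after TAC (-0.62 ± 0.20, adjusted p = 0.0117) was lost without vector TAC library 3 (-0.48, adjusted p = 0.0702, range over the alternatives 0.00568 to 0.0702). TAC under the vector (0.19 ± 0.20, adjusted p = 0.419) was called by library size alone (0.55, adjusted p = 0.0212, range 0.0212 to 0.860). Its exons share 155 bases with Chchd10 on the opposite strand. Macrophage metalloelastase (Mmp12) ran from 0.157 to 0.483 CPM in PRODH TAC and 0.271 to 0.832 in vector TAC, against 0.175 to 0.516 in PRODH sham and 0.241 to 1.16 in vector sham, and no comparison called it.

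The genes of the collagenase and stromelysin family lie mostly together on chromosome 9, and most of their promoters hold an AP-1 match, Mmp3 and Mmp13 among them. RefSeq promoters (GRCm38.p6, 250 bases before to 50 after the start site) were found for 36 of the 51 members, 39 promoters in all. The AP-1 motif TGANTCA, which reads the same on both strands, was in 8 of the 39 (20.5%), against 7.81% of all 32851 promoters. The TATA motif TATAAA was in 12 (30.8%, against 13.6%) and the GC box GGGCGG in 22 (56.4%, against 35.7%), both searched on either strand. All 8 genes with an AP-1 match are Mmp genes of chromosome 9, which holds 10, and 3 of the 8 passed the filter (Mmp3, Mmp12 and Mmp13). Mmp8 and Mmp27 are the others of the 10, with no match of these letters in the window. Mmp7 and Mmp12 have 2 promoters each, of which 1 holds it. These matches are a description of the letters and name no site. The 27 bases around each match, with the match in capitals and read 5′ to 3′ on the gene's strand, show how far the neighbouring bases are shared.
Mmp3 (chr9:7445766-7445792, plus strand): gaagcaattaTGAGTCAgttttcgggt
Mmp13 (chr9:7272469-7272495, plus strand): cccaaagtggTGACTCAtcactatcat
Mmp12 (chr9:7347320-7347346, plus strand): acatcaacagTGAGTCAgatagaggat
Mmp1a (chr9:7464058-7464084, plus strand): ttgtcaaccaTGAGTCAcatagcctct
Mmp1b (chr9:7388103-7388129, minus strand): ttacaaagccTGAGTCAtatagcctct
Mmp7 (chr9:7692017-7692043, plus strand): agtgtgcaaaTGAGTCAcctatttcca
Mmp10 (chr9:7502269-7502295, plus strand): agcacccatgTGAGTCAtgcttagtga
Mmp20 (chr9:7628126-7628152, plus strand): atttgagacaTGAATCAtcacttacag

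The AP-1 match begins 46 bases before the RefSeq start of Mmp3 and 35 before that of Mmp13. The 120 bases before the start are shown for Mmp3 and Mmp13, which after TAC were lower (Mmp3) and higher (Mmp13, at few counts) under PRODH than under the vector, and for Adamtsl2 and Mmp15, the member with the largest fall there and a member that was higher. All 4 are on the plus strand and read 5′ to 3′, with AP-1, TATA and GC box matches in capitals (in Mmp15 the GC box is on the other strand). No matches overlap.
Mmp3 (chr9:7445702-7445821, plus strand): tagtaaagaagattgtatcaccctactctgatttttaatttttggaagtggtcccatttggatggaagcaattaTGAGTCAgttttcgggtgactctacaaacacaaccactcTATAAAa
Mmp13 (chr9:7272394-7272513, plus strand): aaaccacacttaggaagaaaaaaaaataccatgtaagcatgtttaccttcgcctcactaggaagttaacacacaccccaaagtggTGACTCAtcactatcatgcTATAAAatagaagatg
Adamtsl2 (chr2:27079259-27079378, plus strand): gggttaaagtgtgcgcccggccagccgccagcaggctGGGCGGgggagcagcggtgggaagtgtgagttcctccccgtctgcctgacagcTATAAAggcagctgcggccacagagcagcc
Mmp15 (chr8:95352176-95352295, plus strand): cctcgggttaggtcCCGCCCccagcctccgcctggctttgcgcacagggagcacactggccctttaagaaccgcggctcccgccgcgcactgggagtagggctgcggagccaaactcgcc

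**Figure D5:**
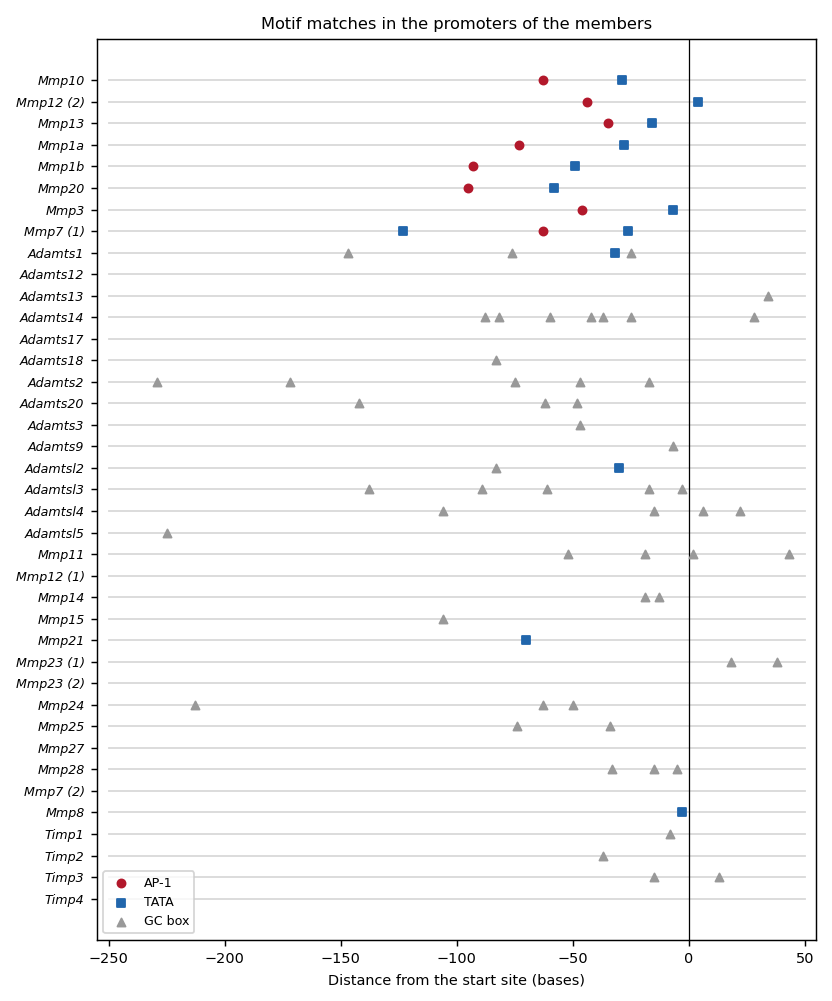
Places of AP-1, TATA and GC box matches in the 39 RefSeq promoters of 36 members, by distance in bases from the start site (x axis), with 1 line for each promoter and a number after the gene where it has 2. The 8 promoters with an AP-1 match stand at the top, all of them Mmp genes of chromosome 9 and each with a TATA match.

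Of the other Mmp genes 3 passed the filter, and all rose after TAC under the vector. Mmp23, an MMP with a cysteine array, had 2.45, 2.69, 2.88 and 2.20 CPM in PRODH TAC, against 6.68, 8.01, 7.60 and 7.48 in vector TAC. Sham libraries had 1.46, 0.997, 1.43 and 1.71 CPM of it under PRODH and 1.42, 0.913, 1.03 and 0.846 under the vector. PRODH TAC lay between vector TAC and the sham groups. The TAC effect on Mmp23 was 0.87 ± 0.18 under PRODH and 2.84 ± 0.17 under the vector, and the difference between PRODH and vector after TAC was -1.54 ± 0.14 (log2 ± SE, adjusted p = 2.87e-10).

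Mmp19, a protease of basement membrane proteins, had 0.644, 1.24, 0.975 and 0.827 CPM in PRODH TAC, against 2.17, 2.39, 1.94 and 2.17 in vector TAC. The sham values of Mmp19 were 0.7004, 0.436, 0.516 and 0.788 CPM in PRODH and 0.427, 0.609, 0.0604 and 0.529 in vector libraries. Vector TAC lay above all other libraries, both PRODH groups overlapped, and TAC under PRODH was not called (0.59 ± 0.33, adjusted p = 0.166). By library size alone it was (0.97, adjusted p = 0.0131, range over the alternatives 0.0131 to 0.408). Mmp19 passed the filter through the TAC groups. Epilysin (Mmp28) had 1.77, 1.57, 1.62 and 2.20 CPM in PRODH TAC, against 2.59, 1.72, 4.61 and 3.52 in vector TAC, which overlapped. Sham libraries of Mmp28 had 1.40, 1.74, 1.89 and 1.05 CPM under PRODH and 0.285, 0.913, 1.21 and 1.06 under the vector. Its fall under PRODH after TAC (-0.79 ± 0.25, adjusted p = 0.0143) was lost without vector TAC library 3, the highest (-0.54, adjusted p = 0.0953, range over the alternatives 0.00105 to 0.0953). Both genes had fractional counts in all 16 libraries and share exonic bases on the opposite strand, Mmp19 789 with Tmem198b and 212 with Gm47093, and Mmp28 466 with 1700020L24Rik.

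The proteoglycanases, which cut versican, aggrecan and related proteoglycans, had 6 tested members, which all rose after TAC under PRODH, Adamts4 only near the threshold. Under the vector 5 of the 6 rose, with Adamts4 kept by the filter through vector TAC alone, the group where it is high. The other, Adamts15, was at 0.31 ± 0.15 (log2 ± SE, adjusted p = 0.0750) with TAC above sham in all libraries. By library size alone it was called there (0.67, adjusted p = 0.000638, range over the alternatives 0.000638 to 0.222), and its interaction was not (0.12 ± 0.20, adjusted p = 0.714). Adamts1 stood at 25.8, 29.3, 28.7 and 24.4 CPM in PRODH TAC, against 47.3, 42.2, 41.3 and 44.6 in vector TAC. Sham values of Adamts1 were 18.9, 15.8, 16.3 and 15.8 CPM under PRODH and 22.3, 18.1, 21.7 and 21.7 under the vector. Both TAC groups lay above both sham groups, with vector TAC higher. TAC raised Adamts1 by 0.70 ± 0.09 under PRODH and by 1.07 ± 0.08 under the vector (log2 ± SE, adjusted p = 3.64e-07 and 5.66e-12). That these effects differed (-0.37 ± 0.12, adjusted p = 0.0205) was lost by library size alone (0.0590) and without PRODH TAC library 4 (0.0734), PRODH sham library 1 or 3 (0.113 and 0.0581) or vector sham library 2 or 4 (0.101 and 0.0547). The alternatives ran from 0.0155 to 0.113. Its lower level under PRODH after sham (-0.32 ± 0.09, adjusted p = 0.0286) came from overlapping groups. That call was lost by library size alone (0.0989) and without PRODH sham library 2, 3 or 4 (0.0979, 0.0907 and 0.0662) or vector sham library 1, 3 or 4 (0.0804, 0.0772 and 0.0793), with a range of 0.00839 to 0.0989.

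Adamts9, a versican protease known from blood vessels and the developing heart, stood at 11.5, 12.2, 11.9 and 11.3 CPM in PRODH TAC, against 16.1, 14.2, 15.9 and 16.7 in vector TAC. It stood at 7.53, 7.66, 7.28 and 6.90 CPM in PRODH sham and 10.4, 9.49, 11.5 and 11.0 in vector sham. PRODH was lower than the vector after either operation without overlap (-0.42 ± 0.08 after TAC and -0.52 ± 0.10 after sham, log2 ± SE, adjusted p = 0.000147 and 0.000456). TAC raised it under both viruses, and the test of the difference did not call it (0.10 ± 0.13, adjusted p = 0.584). Its exons share 1381 bases with A730049H05Rik and 424 with Gm15737 on the opposite strand.

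Adamts5, an aggrecanase that also cuts versican, stood at 9.73, 10.3, 6.62 and 7.01 CPM in PRODH TAC, against 19.3, 17.3, 14.8 and 16.8 in vector TAC. Sham libraries held 5.90, 5.36, 6.13 and 6.37 CPM of Adamts5 under PRODH and 5.05, 6.29, 7.85 and 5.71 under the vector. Vector TAC stood apart, and PRODH TAC libraries 3 and 4 fell within the span of vector sham. The effect of TAC was 0.50 ± 0.14 under PRODH and 1.45 ± 0.13 under the vector, and these differed (-0.95 ± 0.20, log2 ± SE, adjusted p = 0.000682).

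Adamts15, a versican protease, was the 1 tested proteoglycanase gene called higher under PRODH than under the vector after TAC, where the other 5 were lower. It had 3.54, 4.26, 4.51 and 4.72 CPM in PRODH TAC, against 3.28, 3.27, 3.09 and 2.71 in vector TAC. Its sham values were 3.15, 3.61, 3.09 and 2.76 CPM under PRODH and 2.70, 2.49, 2.41 and 2.38 under the vector. All 4 PRODH libraries lay above all 4 vector libraries after either operation, and the difference was called after TAC (0.46 ± 0.13, adjusted p = 0.00637) and not after sham (0.34 ± 0.15, adjusted p = 0.248). Aggrecanase 1 (Adamts4) ran from 0.372 to 0.483 CPM in PRODH TAC and 0.572 to 1.42 in vector TAC, against 0.115 to 0.311 in PRODH sham and 0.265 to 0.483 in vector sham. Adamts8 ran from 0.724 to 1.54 CPM in PRODH TAC and 3.23 to 3.96 in vector TAC, against 0.233 to 0.723 in PRODH sham and 0.604 to 0.761 in vector sham. Both were lower under PRODH after TAC (-1.19 ± 0.31 for Adamts4 and -1.47 ± 0.22 for Adamts8). Adamts4 passed the filter through vector TAC alone, the group where it is high. The rise of Adamts4 after TAC under PRODH (1.14 ± 0.43, adjusted p = 0.0390) was lost with no filter (0.0950), with DESeq2 (0.0792) and without PRODH TAC library 1, 3 or 4 (0.0766, 0.0636 and 0.0652) or PRODH sham library 3 or 4 (0.111 and 0.0976). The alternatives gave 0.00415 to 0.111. Exons of Adamts8 share 489 bases with Gm29724 on the opposite strand.

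Adamts2 encodes the enzyme that removes the amino-terminal propeptide of procollagen I, a step of fibril formation. It stood at 12.3, 12.2, 9.75 and 10.2 CPM in PRODH TAC, against 33.5, 31.0, 36.9 and 41.1 in vector TAC. Sham libraries held 3.97, 5.23, 4.64 and 4.79 CPM of Adamts2 under PRODH and 4.06, 4.72, 5.01 and 4.34 under the vector. The groups ran in the order vector TAC, PRODH TAC and then both sham groups, which overlapped. TAC raised Adamts2 by 1.25 ± 0.12 under PRODH and by 2.97 ± 0.11 under the vector (log2 ± SE, adjusted p = 2.44e-09 and 1.74e-19). Adamts3, which acts on procollagen II and on the growth factor VEGF-C, ran from 1.14 to 1.65 CPM in PRODH TAC and 0.624 to 1.36 in vector TAC, against 1.05 to 1.55 in PRODH sham and 0.964 to 1.27 in vector sham. No comparison called it.

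Of the proteases of cartilage oligomeric matrix protein (COMP), Adamts7 fell and Adamts12 rose after TAC under the vector. Adamts7 stood at 7.36, 7.60, 8.12 and 6.85 CPM in PRODH TAC, against 4.68, 3.74, 4.19 and 4.39 in vector TAC. Sham values of Adamts7 were 7.705, 8.66, 7.22 and 5.52 CPM under PRODH and 5.84, 5.48, 5.55 and 5.98 under the vector. The vector TAC libraries were the 4 lowest of all 16. Adamts7 was higher under PRODH after TAC (0.81 ± 0.12, log2 ± SE, adjusted p = 2.81e-06). Its fall after TAC under the vector (-0.42 ± 0.13, adjusted p = 0.00648) was lost by library size alone (-0.065, adjusted p = 0.720, range over the alternatives 0.00225 to 0.720). The interaction of Adamts7 (0.46 ± 0.17, adjusted p = 0.0479) was near the threshold. It was lost by library size alone (0.0787), with no filter (0.0666), and without PRODH TAC library 1, 2 or 3 (0.0638, 0.0701 and 0.0963), vector TAC library 2, 3 or 4 (0.0866, 0.0723 and 0.0620), PRODH sham library 4 (0.0704) or vector sham library 4 (0.0545). After sham Adamts7 was not called (0.35 ± 0.12, adjusted p = 0.105), but passed without PRODH sham library 4 (0.0208, range over the alternatives 0.0208 to 0.358). TAC under PRODH (0.04 ± 0.11, adjusted p = 0.833) was called by library size alone (0.41, adjusted p = 0.00884, range 0.00884 to 0.983). Its exons share 122 bases with Tbc1d2b on the opposite strand.

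Adamts12, the other COMP protease, ran from 1.30 to 2.33 CPM in PRODH TAC and 2.08 to 2.87 in vector TAC, against 0.311 to 0.642 in PRODH sham and 0.285 to 0.794 in vector sham. Both TAC groups lay above both sham groups and overlapped each other. TAC raised Adamts12 under both viruses (1.89 ± 0.29 under PRODH and 2.35 ± 0.28 under the vector, log2 ± SE). Adamts12 passed the filter through the TAC groups, where it is high. Its value between PRODH and vector after TAC (-0.47 ± 0.22, adjusted p = 0.0816) passed only without PRODH TAC library 1 (0.0468, range over the alternatives 0.0468 to 0.251). Comp itself averaged 1.01 ± 0.121 CPM in PRODH TAC, 34.7 ± 5.37 in vector TAC, against 0.538 ± 0.298 in PRODH sham and 0.453 ± 0.0856 in vector sham (SD, n = 4).

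Of the genes that act on fibrillin microfibrils, Adamts10 stood at 8.33, 8.55, 6.74 and 5.51 CPM in PRODH TAC, against 14.1, 13.98, 15.5 and 15.6 in vector TAC. Its sham values were 4.49, 4.42, 5.56 and 4.60 CPM under PRODH and 3.06, 2.89, 3.32 and 4.50 under the vector. Vector TAC stood apart, and both PRODH groups overlapped. The effect of TAC was 0.61 ± 0.14 under PRODH and 2.09 ± 0.14 under the vector (log2 ± SE), and these differed (-1.49 ± 0.20, adjusted p = 1.55e-06). After sham Adamts10 was at 0.46 ± 0.16 (adjusted p = 0.0987), and it passed when vector sham library 4 was left out (0.0321, range over the alternatives 0.0321 to 0.317). Its relative Adamts6 ran from 2.32 to 3.14 CPM in PRODH TAC and 1.83 to 2.81 in vector TAC, against 1.51 to 3.09 in PRODH sham and 1.69 to 2.59 in vector sham. It was not called in any comparison, but 2 passed under an alternative. TAC under the vector (0.21, adjusted p = 0.396) passed by library size alone (0.57, adjusted p = 0.0245, range 0.0245 to 0.705). TAC under PRODH (0.36, adjusted p = 0.1502) passed without PRODH sham library 1 (0.60, adjusted p = 0.0239) and by library size alone (0.74, adjusted p = 0.00341), within a range of 0.00341 to 0.351.

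Adamtsl2, whose protein binds fibrillin and the latent TGF-beta binding protein LTBP1, showed the largest fall under PRODH of the 32 members after TAC. It stood at 6.84, 8.22, 6.54 and 6.77 CPM in PRODH TAC, against 33.6, 32.4, 42.3 and 40.9 in vector TAC. Sham values of Adamtsl2 were 1.98, 2.80, 2.81 and 1.71 CPM under PRODH and 2.85, 2.84, 4.47 and 3.28 under the vector. The 4 groups did not overlap at all, in the order vector TAC, PRODH TAC, vector sham and PRODH sham. The difference after TAC was -2.39 ± 0.12 (log2 ± SE, adjusted p = 4.63e-16), and that after sham was -0.52 ± 0.19 and not called (adjusted p = 0.123). With no filter on low counts the sham difference passed (0.0434, range over the alternatives 0.0434 to 0.380). Adamtsl3 (punctin 2) ran from 1.42 to 1.90 CPM in PRODH TAC and 3.59 to 4.77 in vector TAC, against 0.934 to 1.38 in PRODH sham and 1.07 to 1.11 in vector sham. It rose after TAC under the vector (2.00 ± 0.18, adjusted p = 8.86e-11). Under PRODH it was at 0.46 ± 0.19 (adjusted p = 0.0635) and passed by library size alone (0.85, adjusted p = 0.000688) and without PRODH sham library 4 (0.0425) or vector sham library 1 (0.0492), in a range of 0.000688 to 0.182.

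Adamtsl5 and Adamtsl4, both fibrillin binders and the first of them second in level per kilobase, had small fold changes. Adamtsl5 stood at 31.98, 32.2, 37.2 and 34.7 CPM in PRODH TAC, against 33.6, 34.9, 38.4 and 30.6 in vector TAC. Its sham libraries held 31.5, 26.7, 28.7 and 28.1 CPM under PRODH and 23.8, 30.5, 31.995 and 28.7 under the vector. Between PRODH and vector after TAC the difference was -0.02 ± 0.08 (log2 ± SE). TAC raised it by 0.24 ± 0.09 under PRODH and 0.25 ± 0.09 under the vector (adjusted p = 0.0297 and 0.0143). Under PRODH the call was lost without PRODH TAC library 3 (0.111) or PRODH sham library 2 (0.0567, range over the alternatives 1.88e-06 to 0.111). Under the vector it was lost without vector TAC library 3 (0.0685) or vector sham library 1 (0.111, range 1.09e-06 to 0.111), where leaving out the sham library moved the value to 0.16.

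Adamtsl4 stood at 14.2, 15.1, 15.2 and 16.1 CPM in PRODH TAC, against 15.6, 14.5, 14.8 and 16.7 in vector TAC. In sham it stood at 15.9, 13.5, 14.4 and 16.3 CPM under PRODH and 9.25, 15.5, 11.8 and 13.6 under the vector. All groups overlapped. Its rise after TAC under the vector (0.28 ± 0.11, log2 ± SE, adjusted p = 0.0266) was lost with DESeq2 (0.0504), with only the vector groups in the fit (0.0658) and without vector TAC library 1 or 4 (0.0512 and 0.0811) or vector sham library 1 or 3 (0.194 and 0.0948). Without vector sham library 1, the lowest of all 16, its value was 0.15, and the alternatives gave an adjusted p of 1.22e-05 to 0.194. TAC under PRODH (0.01 ± 0.10, adjusted p = 0.960) was called by library size alone (0.39, adjusted p = 0.00360, range 0.00360 to 0.982).

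Adamtsl1 (punctin) was the lowest of the 32 per kilobase. It ran from 0.669 to 0.909 CPM in PRODH TAC and 1.14 to 1.52 in vector TAC, against 0.311 to 0.642 in PRODH sham and 0.213 to 0.964 in vector sham. PRODH TAC lay below vector TAC without overlap, but the difference just missed the threshold (-0.70 ± 0.29, log2 ± SE, adjusted p = 0.0513). It passed with only the TAC groups in the fit (0.0283) and without vector sham library 1 (0.0478, range over the alternatives 0.0283 to 0.1496). Its rise after TAC under PRODH (0.94 ± 0.36, adjusted p = 0.0432) was lost with DESeq2 (0.0556) and without PRODH TAC library 1, 2 or 3 (0.0867, 0.0957 and 0.0680) or PRODH sham library 2, 3 or 4 (0.105, 0.0985 and 0.0777). The range over the alternatives was 0.00304 to 0.105. Adamtsl1 passed the filter through the TAC groups, where it is high.

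Genes that activate these proteases, hold them in check or process the same matrix proteins were listed apart, and 31 of 36 were tested. After TAC under the vector 24 of them rose and 2 fell (median log2 fold change 1.39), against 30.3% and 26.2% of all genes. Those with the smallest adjusted p were the serine protease gene Htra3 (2.48 ± 0.11, log2 ± SE), the procollagen protease enhancer Pcolce (1.91 ± 0.09), the proprotein convertase Pcsk6 (1.99 ± 0.12) and the protease inhibitor Serpine2 (1.84 ± 0.12). Under PRODH after TAC 26 were lower than under the vector and 1 higher (median -0.78), against 24.6% and 18.5% of all genes. Among those with the smallest adjusted p were Htra3 (-1.61 ± 0.10), Pcolce (-1.33 ± 0.09) and Spock2 (-1.73 ± 0.12). TAC under PRODH raised 16 and lowered 2 of the 31 (median 0.37), against 17.2% and 17.8% of all genes. PRODH after sham gave 3 higher and 3 lower, against 2.81% and 2.20% of all genes. The exceptions were chosen after their values were seen: Htra1 fell after TAC under the vector (-0.73 ± 0.08) and was the 1 gene higher under PRODH after TAC (0.43 ± 0.08), and the MMP inducer Bsg fell after TAC under the vector (-0.42 ± 0.09).

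Of 11 genes of the related ADAM proteases 9 were tested. After TAC under the vector 5 rose and 1 fell, and under PRODH after TAC 5 were lower and 1 higher than under the vector. These 6 of 9 stand beside 56.5% of all genes called in the first comparison and 43.1% in the second. Adam15 (1.37 ± 0.10, log2 ± SE), Adam19 (1.03 ± 0.09), Adam9 (0.52 ± 0.09) and Adam10, a sheddase of membrane proteins (0.32 ± 0.08), had the smallest adjusted p in the first. In the second these were Adam15 (-0.76 ± 0.09), Adam19 (-0.46 ± 0.08), Adam9 (-0.42 ± 0.08) and Adam8 (-1.50 ± 0.38). The 1 that went the other way in both was Adam22, chosen after its values were seen (-0.41 ± 0.13 after TAC under the vector and 0.37 ± 0.13 between PRODH and vector after TAC).

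Of 20 substrates of the family 18 were tested, and all 18 rose after TAC under the vector (median 2.80), where 30.3% of all genes did. Under PRODH after TAC 17 were lower than under the vector (median -1.67, with 24.6% of all genes lower). TAC under PRODH raised 14 (median 1.23, with 17.2% of all genes higher). Comp had the smallest adjusted p in both, at 6.21 ± 0.18 after TAC under the vector and -5.09 ± 0.15 between PRODH and vector after TAC (log2 ± SE). Elastin (Eln) was next, at 3.20 ± 0.10 and -2.20 ± 0.09 in these comparisons. Biglycan (Bgn), a small proteoglycan, was at 3.28 ± 0.10 after TAC and -1.93 ± 0.09 between PRODH and vector, and type III collagen (Col3a1) at 3.21 ± 0.10 and -1.67 ± 0.09. The 1 substrate not called between PRODH and vector after TAC was Ltbp1, whose protein holds latent TGF-beta in the matrix, named after its values were seen (-0.10 ± 0.07, adjusted p = 0.2804), which rose by 0.21 after TAC under the vector. Vwf, also on the substrate list, is an endothelial marker too.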

How the data were processed

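Gene expression was measured by RNA-seq in 16 libraries of mouse cardiomyocytes, 4 in each of 4 groups taken from the labels. Per the labels' protocols RNA was extracted with TRIzol, treated with DNase I and turned into libraries by a SMARTER mRNA-Seq kit. What the authors deposited are estimated counts per gene model with no normalization, some of them fractional. The sources used here name no aligner, counting tool, strand setting or genome build.

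Estimated counts were rounded to whole numbers, filtered with filterByExpr (minimum count 10, minimum total count 15), which kept 14066 of 57010 genes, and scaled with TMM factors. The 4 groups were fitted together with edgeR 4.0.16 (R 4.3.3) by its quasi-likelihood test, with limma 3.58.1, and Benjamini-Hochberg adjustment over all genes tested, threshold 0.05. SEs are the log2 fold change over the square root of F, and the prior count was 0.125. The pipeline was tested on simulated data. No 2 libraries of the same group agreed within sampling noise. Libraries of the same replicate number correlated only weakly and were not paired in the main fit. The alternatives were DESeq2 1.42.0, library size alone, no filter, only the compared groups, a replicate block and leaving out each library. Total counts limit genes of few counts.

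The members and gene lists were chosen with earlier results of these data known. Each tested member is described: every Timp gene, the 10 highest in level among the Mmp genes and among the Adamts and Adamtsl genes, and the called members with the 6 smallest adjusted p per comparison library by library, the others by range; from each list up to 4 genes with the smallest adjusted p in the 2 main comparisons, of which 1 gene is not reported here. Gene overlaps are from GENCODE M21 and promoters from RefSeq (GRCm38.p6).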

Additional observations from a re-analysis of the deposited data

Results flagged for a closer look

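In 128 sets of 4 libraries (32 members in 4 groups), 8 held a value that stood apart from the other 3 by Dixon's test, where chance gives about 1 in 20. Timp3 had 133.7 CPM in vector TAC library 2, against 184 to 192 in the other 3. Mmp13 had 0.676 CPM in vector TAC library 2, against 0.325 to 0.383, and Mmp15 had 41.2 CPM in PRODH sham library 4, against 38.2 to 38.4. Adamts1 had 18.9 CPM in PRODH sham library 1, against 15.8 to 16.3, and 18.1 CPM in vector sham library 2, against 21.7 to 22.3. Adamts10 had 5.56 CPM in PRODH sham library 3, against 4.42 to 4.60. Adamts6 had 2.32 CPM in PRODH TAC library 4, against 3.02 to 3.14. Adamts8 had 0.724 CPM in PRODH TAC library 1, against 1.40 to 1.54.

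The effect of TAC under PRODH minus that under the vector passed the threshold for 17 members, by edgeR's test of the interaction. On the log2 scale it was -2.40 for Timp1, -1.46 for Timp2, -1.46 for Timp3 and -1.15 for Timp4. For the Mmp genes it was -2.16 for Mmp2, -1.97 for Mmp23, -1.77 for Mmp19, -1.57 for Mmp28, -1.19 for Mmp14 and 0.51 for Mmp15. For the others it was -1.87 for Adamtsl2, -1.71 for Adamts2, -1.54 for Adamtsl3, -1.49 for Adamts10, -0.95 for Adamts5, -0.37 for Adamts1 and 0.46 for Adamts7.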

How the results depend on the processing

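Of 3316 values of single genes under an alternative, 82 changed their call, or their direction where either fit called the gene. A change of direction with no call in either fit was not counted. Leaving out each library, 22 to 24 members rose after TAC under the vector, 18 to 21 were lower under PRODH after TAC, 14 to 19 rose after TAC under PRODH, 1 to 2 were higher and 1 to 3 lower under PRODH after sham, and 1 to 2 gave a higher interaction. Library size alone moved most. After TAC under the vector it gave 0 members and 1 protease control gene lower (2 each with TMM), and Mmp15 turned to a log2 fold change of 0.023. After TAC under PRODH it gave 27 members higher, 8186 genes called, 25 control genes higher and 1 lower (17, 4925, 16 and 2 with TMM), and Timp3 turned to 0.34. After sham it gave 1 member lower under PRODH (2 with TMM). The interaction had 1 member higher by library size alone and 1 with no filter (2 with TMM and the filter). The members' summed CPM by library size alone was 435 in PRODH TAC, 787 in vector TAC, against 271 in PRODH sham and 239 in vector sham, while with TMM it was 377 in PRODH TAC, 704 in vector TAC, against 305 in PRODH sham and 274 in vector sham. The cause was not tested.

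Libraries with the same replicate number deviated together with r between -0.129 and 0.168, over 0.1 in 3 of 24 pairs. Those 3 pairs were all of libraries numbered 1. Of 16 libraries 5 correlated best with their own number. Correlations this weak cannot show whether equal numbers mark a shared batch. A replicate block changed 1 call of a member, Adamtsl1 after TAC under PRODH (0.93, adjusted p = 0.0523, range over the alternatives 0.00304 to 0.105), which left 16 of 32 members higher there. Genes of few counts, such as Mmp12 and Mmp13, are limited by depth.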
